A study of Homo sapiens with 4 samples.

Results

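To describe how melanoma cells differed in the genes for their surroundings and contacts, 9 genes were followed in RNA sequencing of 4 A375 libraries. The 6 matrix genes were ACAN, AEBP1, AGRN, ASPN, BCAN and BGN, and the 3 adhesion genes were ALCAM, BCAM and BVES. They were chosen by name and role out of 2864 genes with values, with the values of these same libraries already seen, so their levels and ratios are a description and carry no test. The gene names of the table run alphabetically and end at CAC, which is why genes of the matrix and of cell adhesion with later names were not analysed here.

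A375 is a human melanoma cell line, labelled wild type in all 4 libraries, and all 4 carry the same batch label. A375P was the parental line without treatment. A375R was the vemurafenib-resistant strain, which the study raised in its own laboratory by stepwise increases of the drug over several months and kept under vemurafenib, and the sources used here do not say whether it is a single clone. A375+DMSO was A375 given 1‰ DMSO, the solvent, for 48 h, and A375+VEM was A375 given 2 μM vemurafenib for 48 h. The sources used here do not say clearly whether A375+VEM also held DMSO, and if it did not, the drug and the lack of solvent cannot be told apart in that pair. Vemurafenib inhibits the mutant BRAF kinase on which such melanoma cells depend. There was 1 library per condition, so differences between conditions could not be checked in replicates and are given without p-values.

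The extracellular matrix is the mesh of proteins and sugar-bearing proteoglycans that cells secrete, and adhesion molecules in the cell membrane tie a cell to that mesh or to its neighbours. Proteoglycans carry long glycosaminoglycan chains on a protein core. Aggrecan (ACAN) and brevican (BCAN) belong to the lecticans, which bind hyaluronan and are best known from cartilage and from brain. Agrin (AGRN) is a heparan sulfate proteoglycan of basement membranes, and biglycan (BGN) and asporin (ASPN) are small leucine-rich proteins of the same family that bind collagen. AEBP1 encodes a secreted collagen-binding protein. ALCAM is an immunoglobulin-family molecule that joins cells to each other and is known from melanoma, BCAM is a laminin receptor, and BVES is a membrane protein of cell contacts that binds cyclic AMP.

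The authors deposited for each gene the read count and the TPM, in which reads per base of gene length are rescaled so that every library adds up alike, so levels between genes are compared on TPM. The table's genes held 1891215 to 2054277 reads and 8.48% to 8.94% of the TPM of a library, so these read sums are not library depths. Of 16 marker genes for pigment cells and for other cell types, those of macrophages, B cells and adipocytes summed to at most 0.588 TPM per list and library. The 5 hepatocyte genes summed to 63.4 to 81.4 TPM, most of it ALB at 46.4 to 64.5 TPM. The 4 pigment cell genes summed to 31.1 to 62.0 TPM and did not move together. From A375P to A375R, BCL2A1 went from 7.67 to 37.5 TPM and BEST1 from 5.86 to 8.58 TPM, whereas ASAH1 went from 32.4 to 15.9 TPM. ABCB5 was near the floor throughout, with 0 to 6 reads over the 4 libraries. The 2 smooth muscle genes summed to 92.5 TPM in A375P and to 28.5 to 40.9 TPM in the other 3 libraries. Nearly all of it was ACTA2, while ACTG2 had 0 to 9 reads over the 4 libraries. A375P is also the library in which most of the 9 genes were lowest, and the part of these marker genes in that result was not tested. The defining pigment cell markers have names later in the alphabet and were not analysed here.

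The 250 bases before the start of transcription are shown for 3 of the genes, because they set the almost silent ASPN beside ACAN and ALCAM, which were both higher after acute vemurafenib. Sequences are those of RefSeq on GRCh38.p14, 5′ to 3′ on the strand of the gene, with each CG pair in capitals. ACAN is at chr15:88803186-88803435 on the plus strand, ALCAM at chr3:105366659-105366908 on the plus strand and ASPN at chr9:92482507-92482756 on the minus strand.
ACAN: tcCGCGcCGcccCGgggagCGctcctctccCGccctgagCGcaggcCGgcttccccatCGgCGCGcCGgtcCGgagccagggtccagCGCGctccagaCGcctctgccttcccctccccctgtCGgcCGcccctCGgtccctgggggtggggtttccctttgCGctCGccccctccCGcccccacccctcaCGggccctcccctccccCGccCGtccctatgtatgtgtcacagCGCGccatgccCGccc
ALCAM: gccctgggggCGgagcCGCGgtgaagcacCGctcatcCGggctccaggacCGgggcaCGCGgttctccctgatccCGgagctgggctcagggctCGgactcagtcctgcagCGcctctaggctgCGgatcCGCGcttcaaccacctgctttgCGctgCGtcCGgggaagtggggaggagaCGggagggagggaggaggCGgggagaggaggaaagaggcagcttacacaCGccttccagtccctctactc
ASPN: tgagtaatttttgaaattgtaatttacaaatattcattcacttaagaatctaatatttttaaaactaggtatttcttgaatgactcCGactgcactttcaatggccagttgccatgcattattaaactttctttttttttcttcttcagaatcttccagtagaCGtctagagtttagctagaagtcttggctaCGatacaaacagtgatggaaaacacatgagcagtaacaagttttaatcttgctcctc

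The ASPN window holds 3 CG pairs and is 32.4% G and C. The ACAN window holds 28 CG pairs at 77.2%, and that of ALCAM 20 at 68.8%. BCAN has 26, BGN 16 and BCAM, which has 2 listed starts, 24 and 25. Over all 35116 promoter windows the median was 11 CG pairs, and 70.7% of them held more than ASPN. Among the 1626 genes of the table matched by symbol, the median was 21 CG pairs for the 1207 that reached a TPM of 1 in a library and 5 for the 419 that did not. ASPN thus has fewer CG pairs than each of these medians, and the other 5 genes with an entry have more than the median of all windows. ALCAM at 20 and BGN at 16 are, however, below the median of 21 for the genes that reached a TPM of 1. ACAN, with the most CG pairs, was itself at 0.356 TPM in A375P, where its counting interval overlapped that of ASPN. A link between CG pairs and level was not tested. AEBP1, AGRN and BVES have no entry in the table of promoters. The motifs TGANTCA (AP-1), GGAATG (TEAD) and CACGTG (E-box) were searched on both strands of the full 300-base windows, which run 50 bases past the start. None of the 3 occurs in the 7 windows of the 6 genes, and 7.71%, 14.0% and 7.26% of all windows hold them. The 2 windows of BCAM overlap, and with so few windows this absence is not read as a trait of these genes.

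The 9 genes spanned the whole range from silent to abundant. Agrin was the most abundant in every library, with 42.2% to 57.3% of their summed TPM, and AEBP1 was second in every library. Asporin was last in all 4. Added up, the 9 genes made 356 TPM in A375P, 566 TPM in A375R, 527 TPM in A375+DMSO and 768 TPM in A375+VEM. A TPM of 1 in at least 1 library was reached by 8 of the 9, ASPN being the exception. The lowest value lay in A375P for 6 of these 8, as it did for 37.1% of 1817 genes of the table. A375+VEM was the highest library for 5 of the 8, where 40.1% of genes were highest there. Of the 8, the 4 genes ACAN, AGRN, BCAM and BVES were lowest in A375P and highest in A375+VEM, an order shown by 23.7% of the genes. In bulk RNA, a smaller number of cells that express a gene and less RNA per cell cannot be told apart.

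**Figure D1:**
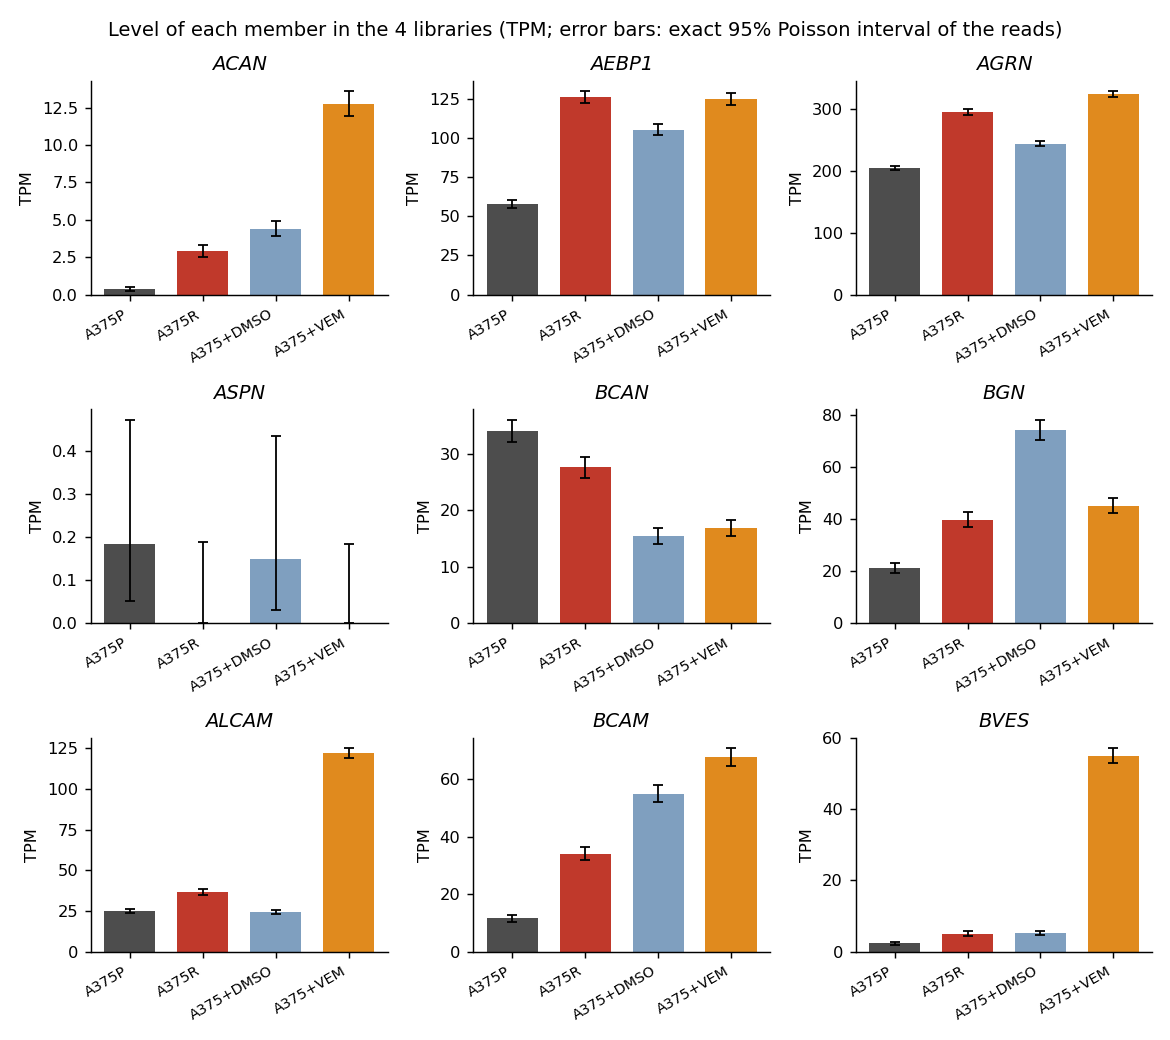
Level of each gene in TPM (vertical axes, each from 0) in the 4 libraries, with error bars for the exact 95% Poisson interval of the reads, which cover counting error only. ACAN, ALCAM and BVES stand out in A375+VEM at 12.7, 122 and 55.0 TPM, BGN is highest in A375+DMSO at 74.3 TPM, BCAN is highest in A375P at 34.1 TPM, and the ASPN bars stay under 0.2 TPM.

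Among the lecticans, ACAN (chromosome 15 from 89346674 to 89418585 in the hg19 coordinates of the table, plus strand) had 27 reads in A375P, 198 in A375R, 309 reads in A375+DMSO and 894 in A375+VEM. Its level was 0.356 TPM in A375P, 2.89 in A375R, 4.37 TPM in A375+DMSO and 12.7 in A375+VEM, and no 2 of the 4 counting intervals overlap. Aggrecan RNA was below a TPM of 1 in the parental library alone and highest under the drug, a 35.7-fold span that exceeds the span of 98.2% of the 1817 genes. BCAN (chromosome 1 from 156611740 to 156629324, plus strand) went the other way across the libraries. It had 1183 reads and 34.1 TPM in A375P, 866 reads and 27.6 TPM in A375R, 498 reads and 15.4 TPM in A375+DMSO, and 543 reads and 16.9 TPM in A375+VEM. Brevican was the only 1 of the 8 expressed genes with its highest level in A375P, and the intervals of A375+DMSO and A375+VEM overlap. In TPM, BCAN exceeded ACAN in every library, by the widest margin in A375P and by the narrowest in A375+VEM.

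Agrin and AEBP1 were the most abundant matrix genes in every library. AGRN (chromosome 1 from 955503 to 991499, plus strand) had 12945 reads and 204 TPM in A375P, 16875 reads and 295 TPM in A375R, 14391 reads and 243 TPM in A375+DMSO, and 19016 reads and 324 TPM in A375+VEM. It ranked between place 27 and place 64 of the 2864 genes, and its 1.59-fold span over the libraries was wider than that of only 24.4% of genes. AEBP1 (chromosome 7 from 44143960 to 44154164, plus strand) had 2027 reads in A375P, 3987 in A375R, 3442 reads in A375+DMSO and 4051 in A375+VEM. In TPM these were 57.9, 126, 105 and 125, a 2.18-fold span that exceeds that of 48.6% of genes. A375P stood alone at the low end, and the intervals of A375R and A375+VEM overlap.

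Of the small leucine-rich family, biglycan was well expressed and asporin was at the edge of detection. BGN (chromosome X from 152760347 to 152775012, plus strand) had 444 reads and 21.1 TPM in A375P, 754 reads and 39.7 TPM in A375R, 1456 reads and 74.3 TPM in A375+DMSO, and 879 reads and 45.1 TPM in A375+VEM. It was the only 1 of the 8 genes that peaked in the solvent library, and the level intervals of A375R and A375+VEM overlap slightly. ASPN (chromosome 9 from 95218487 to 95244844, minus strand) had 4 reads in A375P, 0 in A375R, 3 reads in A375+DMSO and 0 in A375+VEM. By the rule that a count of 0 allows up to 3 reads, ASPN could reach 0.153 TPM in A375R and 0.150 TPM in A375+VEM, and the exact Poisson limits drawn in the plot of levels are 0.189 and 0.184 TPM, so no difference between libraries was detectable at this depth.

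The adhesion genes ranged from 2.30 to 122 TPM. ALCAM (chromosome 3 from 105085557 to 105295757, plus strand) had 1355 reads and 24.8 TPM in A375P, 1800 reads and 36.5 TPM in A375R, 1236 reads and 24.2 TPM in A375+DMSO, and 6179 reads and 122 TPM in A375+VEM. The libraries without vemurafenib were alike, with overlapping intervals, A375R was somewhat above them, and A375+VEM was far above, where ALCAM came level with AEBP1. BCAM (chromosome 19 from 45312316 to 45324678, plus strand) had 338 reads and 11.5 TPM in A375P, 902 reads and 34.0 TPM in A375R, 1508 reads and 55.0 TPM in A375+DMSO, and 1843 reads and 67.6 TPM in A375+VEM. All 4 intervals of the laminin receptor are separate, with A375P lowest. BVES (chromosome 6 from 105544697 to 105585049, minus strand) had 114 reads and 2.30 TPM in A375P, 222 reads and 4.95 TPM in A375R, 239 reads and 5.16 TPM in A375+DMSO, and 2530 reads and 55.0 TPM in A375+VEM. BVES was low in 3 libraries and abundant in 1, and its 24.0-fold span exceeds that of 97.7% of genes. The intervals of A375R and A375+DMSO overlap for BVES.

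The order of the genes within a library therefore shifted below the first places. In A375P it ran AGRN, AEBP1, BCAN, ALCAM, BGN, BCAM, BVES, ACAN and ASPN, and only the last neighbours, ACAN and ASPN, had overlapping intervals. In A375R, BGN, ALCAM and BCAM followed AEBP1 with intervals that overlapped from each to the next. In A375+DMSO, BGN and BCAM followed AEBP1, and BVES and ACAN could not be separated. In A375+VEM, ALCAM followed AEBP1 with an overlapping interval, and then came BCAM, BVES and BGN. BCAN was in place 3 in A375P, in place 6 in A375R and A375+DMSO, and in place 7 in A375+VEM.

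To identify differences that go with persistent resistance, the study paired A375R with A375P. A gene was called past the threshold when its ratio of (TPM + 0.1) exceeded 1.5-fold and either of the 2 libraries compared had a TPM of at least 1. Log2 ratios are on that scale, which understates the difference of low genes, whereas fold values are ratios of TPM with exact Clopper-Pearson 95% intervals from the reads. Such intervals compare libraries, not conditions, and hold counting error alone. Of the 8 members compared, 5 were higher in A375R, where 26.8% of 1689 genes were, and 0 were lower, where 17.5% of genes were. Their median log2 ratio was 0.99, beside 0.10 over all genes. ACAN had the widest difference, 8.12-fold (95% interval 5.41 to 12.6), followed by BCAM at 2.95-fold (2.60 to 3.36). AEBP1, BVES and BGN were 2.18-fold (2.06 to 2.30), 2.16-fold (1.71 to 2.73) and 1.88-fold higher (1.67 to 2.12). ALCAM and AGRN lay just inside the threshold, at log2 ratios of 0.55 and 0.53, and BCAN was at -0.30.

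**Figure D2:**
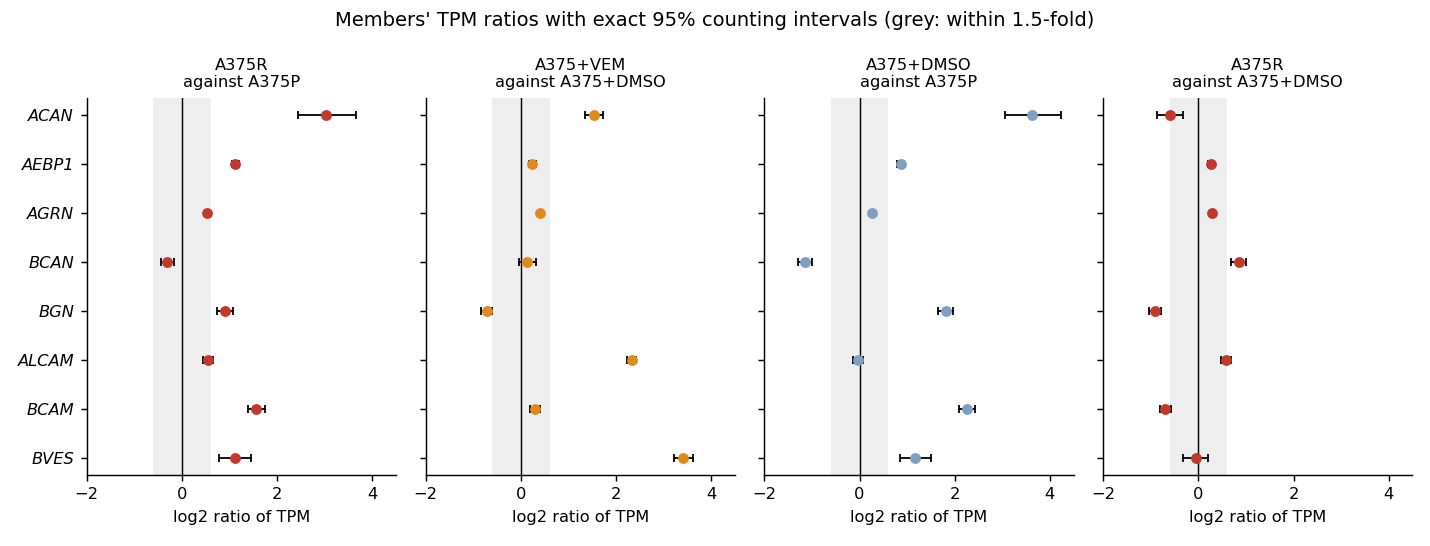
Log2 ratio of TPM (horizontal axes) for the 8 members compared, in 4 pairs of libraries, with exact 95% intervals for counting error and a grey band within 1.5-fold. In A375R against A375P, 5 genes lie to the right of the band, whereas in A375R against A375+DMSO every gene lies within 1 log2 unit of 0.

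The libraries without the drug also differed from each other. Against A375P, 5 of the 8 members were higher in A375+DMSO, where 26.8% of 1720 genes were, and 1 was lower, where 18.9% of genes were. Those higher were ACAN at 12.3-fold (95% interval 8.27 to 18.9), BCAM at 4.78-fold (4.25 to 5.40), BGN at 3.51-fold (3.16 to 3.92), BVES at 2.25-fold (1.79 to 2.83) and AEBP1 at 1.82-fold (1.72 to 1.92). BCAN was the lower gene, at a TPM ratio of 0.451 (0.405 to 0.501). ALCAM, at a ratio of 0.978 (0.904 to 1.06), showed no difference detectable at this depth. The members' median log2 ratio was 1.00, and that of all genes 0.09. Both comparisons share A375P, so their similarity is not a result of its own.

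Measured against A375+DMSO instead, A375R was higher in 2 of the 8 members, where 10.5% of 1702 genes were, and lower in 2, where 9.99% of genes were. Higher in A375R were BCAN at 1.80-fold (95% interval 1.61 to 2.01) and ALCAM at 1.504-fold (1.40 to 1.62). ALCAM passed narrowly, at a log2 ratio of 0.59. BGN and BCAM were the lower genes, at ratios of 0.535 (0.489 to 0.584) and 0.618 (0.568 to 0.671). ACAN, at a TPM ratio of 0.662 (0.551 to 0.794), was at a log2 ratio of -0.58 and narrowly not past the threshold. BVES was at 0.959 (0.796 to 1.16), AEBP1 at 1.20 (1.14 to 1.25) and AGRN at 1.21 (1.18 to 1.24). The higher level of ACAN, BCAM, BGN and BVES in A375R was thus seen against A375P but not against A375+DMSO. Against A375+DMSO these ratios were below 1, and the interval of BVES included 1. ALCAM was above 1 against either library without the drug, at 1.47-fold (1.37 to 1.58) and 1.504-fold, and so were AEBP1 and AGRN.

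Responses to acute treatment were sought by pairing A375+VEM with A375+DMSO. Of the 8 members compared, 3 were higher in A375+VEM, where 26.5% of 1784 genes were, and 1 was lower, where 19.7% of genes were. The median log2 ratio was 0.36, beside 0.11 over all genes. BVES was 10.7-fold higher (95% interval 9.33 to 12.2), with only 9 of the genes compared above it. ALCAM was 5.03-fold higher (4.74 to 5.36), above 97.4% of genes, and ACAN 2.91-fold higher (2.56 to 3.33), above 92.5%. BGN was lower, at a ratio of 0.608 (0.558 to 0.661). AGRN, BCAM and AEBP1 were within the threshold at 1.33-fold, 1.23-fold and 1.19-fold, each with an interval above 1. Scaling all genes to a median ratio of 1 moved these log2 ratios below their counting intervals, to 0.31, 0.19 and 0.14. The interval of BCAN ran from 0.970 to 1.24. With A375P in place of A375+DMSO, ALCAM was 4.92-fold and BVES 24.0-fold higher in A375+VEM, so these were high there against either library without the drug. BGN by contrast was 2.14-fold higher in A375+VEM than in A375P (1.90 to 2.40).

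**Figure D3:**
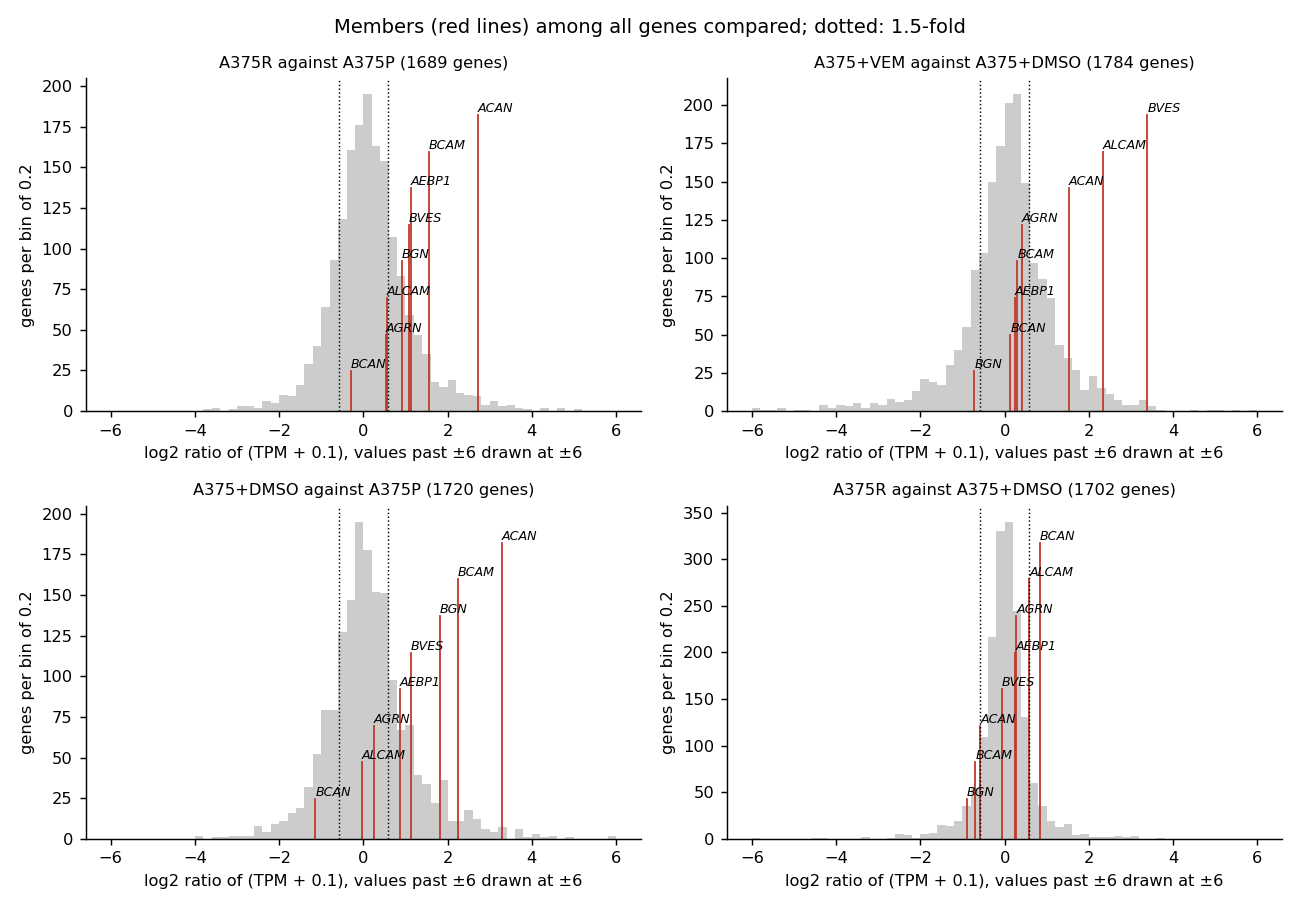
Distribution of the log2 ratio of (TPM + 0.1) over all genes compared (grey, genes per bin of 0.2) in 4 pairs of libraries, with the members as red lines whose heights only separate their names and dotted lines at 1.5-fold. In the acute pair BVES, ALCAM and ACAN lie at 3.39, 2.33 and 1.52, and ACAN lies at 2.71 for A375R and 3.29 for A375+DMSO when each is set against A375P.

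The drug's short and long exposures were also set side by side. A375R and A375+VEM were both exposed to vemurafenib. Of the 8 members compared, 4 were lower in A375R, where 546 of 1773 genes were, and 1 was higher, where 423 genes were. The median log2 ratio was -0.59, beside -0.10 over all genes. BVES was 11.1-fold lower in A375R than in A375+VEM (95% interval 9.68 to 12.8) and ACAN 4.40-fold lower (3.77 to 5.16). ALCAM was 3.35-fold lower (3.17 to 3.53) and BCAM 1.99-fold lower (1.84 to 2.16). BCAN was 1.64-fold higher in A375R (1.47 to 1.82). AEBP1, at a ratio of 1.01 (0.966 to 1.05), did not differ beyond counting error. BGN was within the threshold, at a ratio of 0.880 (0.797 to 0.971). Ratios of this pair were not recomputed with other scalings, and the median over all genes leaned lower in A375R. A difference as small as that of BGN is therefore not read as one of the gene.

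BVES has a lncRNA neighbour whose reads were highest in the same library. BVES-AS1 starts 512 bases beyond the end of BVES that holds its start and runs on the opposite strand, from 105585562 to 105617820 on chromosome 6 in hg19. It had 1 read in A375P, 5 in A375R, 6 reads in A375+DMSO and 43 in A375+VEM. Between the acute pair it was 7.22-fold higher under the drug (95% interval 3.06 to 20.7), beside 10.7-fold for BVES. In TPM, BVES-AS1 reached 3.16 in A375+VEM and was under 0.5 in the other 3 libraries, so the pair was high together in A375+VEM at very different levels. The genes do not overlap in the table, and whether the counting used strand is not given in the sources used here. Among the other members, the shortest distance to a gene of the table was 25698 bases, from AGRN to C1orf159.

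**Figure D4:**
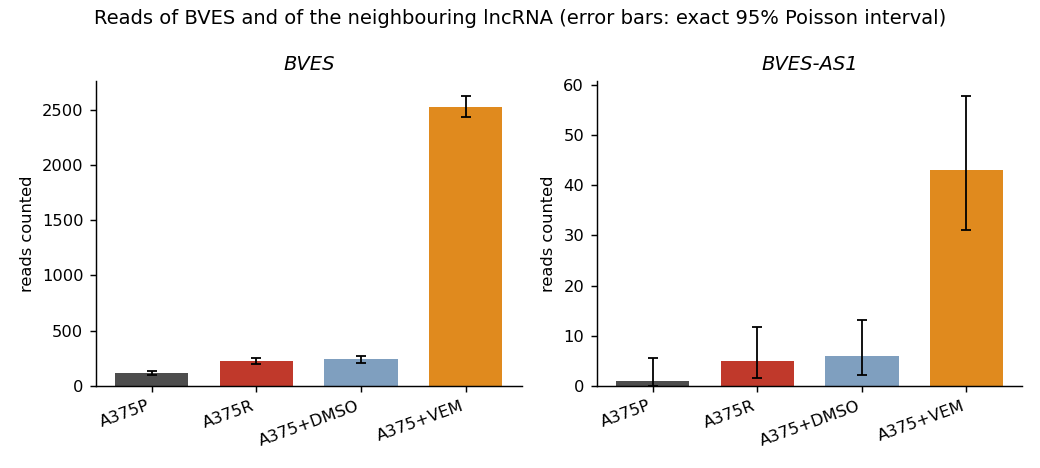
Reads counted (vertical axes, each from 0) for BVES and for BVES-AS1 in the 4 libraries, with exact 95% Poisson intervals. Both are highest in A375+VEM, at 2530 and 43 reads, and BVES-AS1 has at most 6 reads in the other libraries.

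The genes nearest to each member in pattern were found by the root mean square difference of log2(TPM + 0.1), centred on each gene's mean over the 4 libraries, among 1817 genes. With 4 libraries, many genes come close to any pattern, and some matches rest on few reads. Over the 4 libraries, AZU1 had 5 to 24 reads, BTBD8 7 to 20, APOA1-AS 1 to 7 and ADD3-AS1 0 to 32. For ACAN the nearest genes were ABCB4 (0.09), a phospholipid transporter, and C1R (0.15), a complement protease, which went from 1.02 and 2.27 TPM in A375P to 34.4 and 53.9 TPM in A375+VEM. For BVES the nearest were ADD3-AS1 (0.25) and ANK3 (0.30), the latter encoding ankyrin-G, a membrane-cytoskeleton adaptor, at 8.52 TPM in A375+DMSO and 82.8 TPM in A375+VEM. AZU1 (0.12) and ATL1 (0.17) were nearest to ALCAM, APOA1-AS (0.10) and ADAMTS10 (0.12) to BCAM, and BTBD8 (0.13) and BPHL (0.14) to BGN. AGRN was matched by ATL3 (0.04) and ABHD18 (0.05), AEBP1 by C4orf33 (0.05) and ANO10 (0.07), and BCAN by ASPHD2 and BATF2 (0.08 and 0.09). Between members, AEBP1 and AGRN were the closest pair at 0.25.

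Related genes were followed in 4 lists by role, with 39 genes in all. Of 13 other matrix proteins, 4 were compared between A375R and A375P, of which 2 were higher and 1 lower, beside 26.8% and 17.5% of all genes. ADAMTSL4, a fibrillin-associated matrix glycoprotein, had 328 reads in A375P, 1083 in A375R, 1734 reads in A375+DMSO and 2216 in A375+VEM, and was lowest in A375P like most members. In the acute pair 6 could be compared and 3 of them were higher under the drug, namely ABI3BP at a log2 ratio of 0.84, ADAMTSL1 at 1.47 and BGLAP, which encodes osteocalcin, at 0.82. ADAMTSL3 was lower there, at -1.95, and of all genes in the acute pair 26.5% were higher and 19.7% lower. The lists' medians were 0.66 and 0.61 in these pairs, beside 0.10 and 0.11 over all genes. The other 7 matrix genes stayed under a TPM of 1 in these 4 libraries, AMELX with 0 reads in each.

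All 10 other adhesion genes were compared, and they went both ways. In A375R against A375P, BOC and ASTN2 were higher, at log2 ratios of 2.03 and 0.64, and AJAP1 and AMIGO3 lower, at -1.09 and -0.84, so 2 of 10 lay in each direction beside 26.8% and 17.5% of all genes. Against A375+DMSO none of these 4 differences kept its direction past the threshold. BOC lay at a ratio of 0.644, AJAP1 was 2.77-fold higher, and ASTN2 and AMIGO3 were at 0.973 and 1.03. AJAP1, a protein of adherens junctions, had 2150 reads in A375P, 908 in A375R, 339 reads in A375+DMSO and 75 in A375+VEM. This order is the reverse of that of ACAN. In A375+VEM against A375+DMSO, 3 were higher and 4 lower, beside 26.5% and 19.7% of all genes. AMIGO2, a leucine-rich adhesion protein, was lower at a ratio of 0.196 (95% interval 0.174 to 0.221), while its relatives AMIGO1 and AMIGO3 were 1.99-fold and 2.33-fold higher. BSG, which encodes basigin, was the most abundant of the list at 342 to 507 TPM and within 1.5-fold in both pairs. The lists' medians were -0.18 and -0.10.

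The third list holds enzymes that link or break down glycosaminoglycan chains. It also holds the glucuronyltransferases B3GAT1 and B3GAT2, which are not taken here to build such chains. Of 5 compared in each pair, 1 was lower and 0 higher in A375R than in A375P, beside 17.5% and 26.8% of all genes. The acute pair had 1 higher and 1 lower, the latter B3GAT1, beside 26.5% and 19.7% of all genes. The others, 4 of 5 and 3 of 5, were within the threshold, as were 55.7% and 53.8% of all genes. ARSB, a lysosomal sulfatase that breaks down chondroitin and dermatan sulfate, was the gene lower in A375R (log2 ratio -0.62) and the gene higher in A375+VEM (1.33), with 445 reads in A375P, 259 in A375R, 333 reads in A375+DMSO and 838 in A375+VEM. B3GALT6, B3GAT3 and B4GALT7, which build the linker that joins the chains to a core protein, were within 1.5-fold in both pairs.

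Several proteases that cut matrix or adhesion proteins differed widely. Of 10 such genes, 7 were compared in each pair. In A375R against A375P, 3 were higher and 0 were lower, beside 26.8% and 17.5% of all genes. Those higher were ADAMTS4 at 27.2-fold (95% interval 19.4 to 39.3), ADAMTS15 at 6.06-fold (3.69 to 10.5) and ADAMTS1 at 2.59-fold (1.91 to 3.54), all known to cleave aggrecan. In A375P, ADAMTS4 had 35 reads at 0.939 TPM and ADAMTS15 had 19 reads at 0.391 TPM, both under a TPM of 1. Against A375+DMSO, ADAMTS4 was 3.01-fold higher in A375R, whereas ADAMTS15 and ADAMTS1 were at ratios of 1.05 and 0.999. The acute pair had 3 higher and 2 lower, beside 26.5% and 19.7% of all genes. From A375+DMSO to A375+VEM, ADAMTS15 went from 102 to 3041 reads, with a 95% interval of the TPM ratio from 24.6 to 36.9. BMP1, which processes procollagens and small leucine-rich proteoglycans, was 3.28-fold higher there, and ADAM10, which sheds adhesion molecules from the cell surface, 1.94-fold (1.85 to 2.04). ADAMTS4 and ADAMTS9 were lower, at ratios of 0.659 and 0.555. ADAM17, which sheds ALCAM, was at 1.32-fold and 1.30-fold in these pairs, within the threshold.

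**Figure D5:**
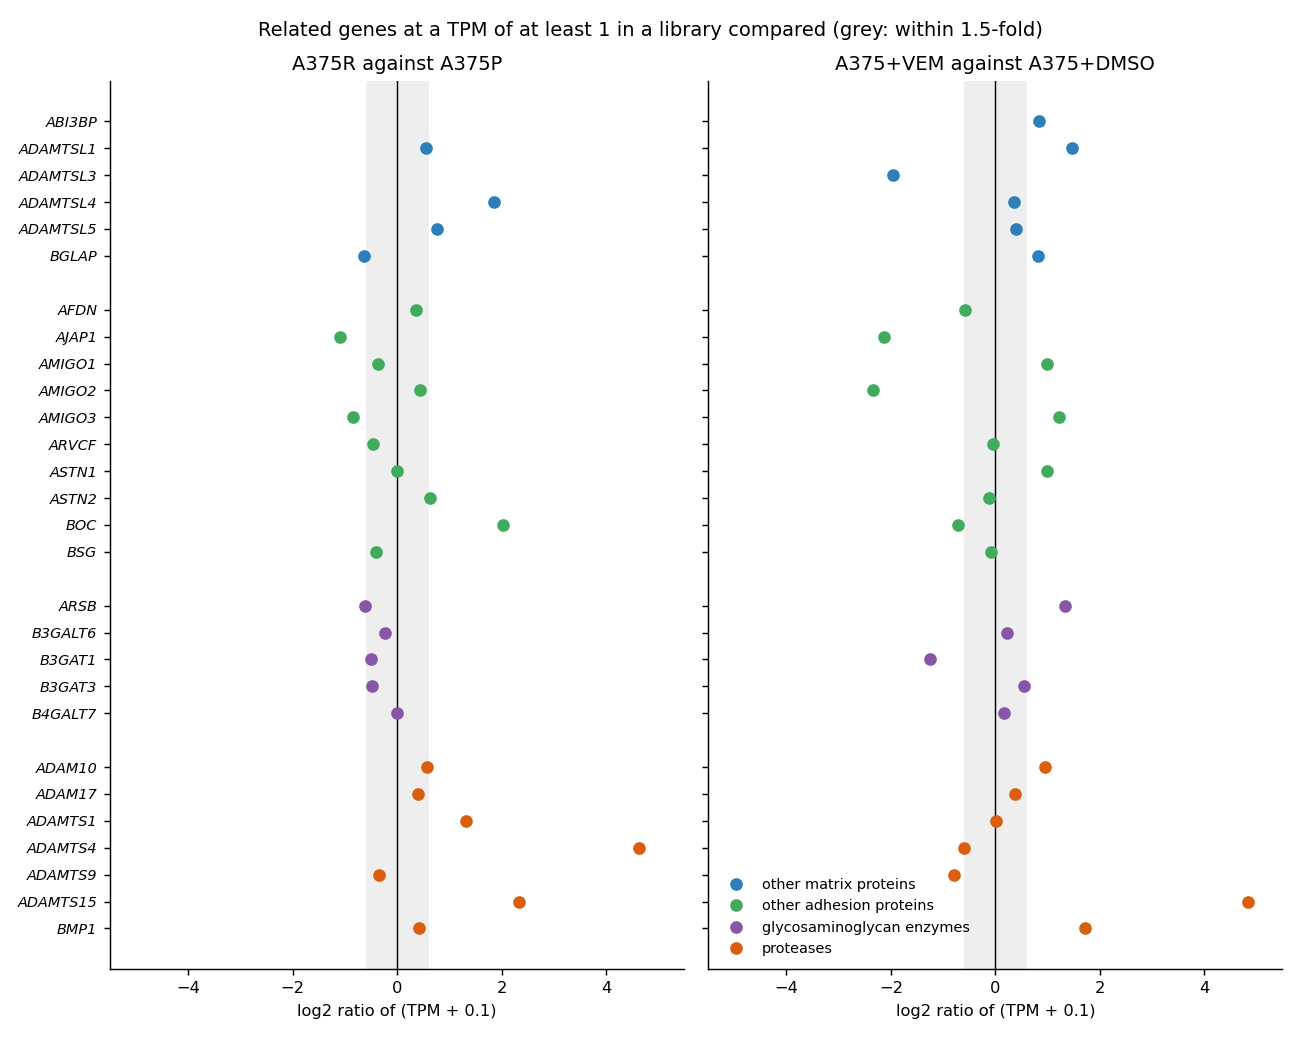
Log2 ratio of (TPM + 0.1) (horizontal axes) of the related genes compared, coloured by list, in A375R against A375P and A375+VEM against A375+DMSO, with a grey band within 1.5-fold. ADAMTS4 lies at 4.62 in the first pair and ADAMTS15 at 4.85 in the second, while AMIGO2 and AJAP1 lie at -2.34 and -2.13 in the second.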

How the data were processed

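RNA sequencing covered 4 conditions of A375 cells with a single library each, assigned by the sample labels. The authors deposited whole-number read counts without normalization and TPM values, scaled over all genes of a library, in 1 table whose coordinates are hg19. The submitters' processing notes name hg19, HISAT2, TopHat2, Bowtie2 and HISAT with no roles given; the counting program is not given in the sources used here. The table used here holds 2864 genes with values, and 1 incomplete row was left out. Within each library a read per base was worth a constant amount of TPM, which scaled the intervals. The members, the 4 related lists, the likeness rule and the motifs were chosen with earlier results of these data known. Named genes are the members, the listed genes, the 2 nearest genes in pattern per member and neighbouring antisense genes. The CG count of promoters was added after the values were seen. Alternatives were pseudocounts of 1 and 0.01, no filter or a TPM of at least 5, a median ratio of 1, edgeR's TMM scaling, a 2-fold threshold and A375P as the control of A375+VEM. The ratio step was tested on simulated counts. The software was edgeR 4.0.16 in R 4.3.3, and scipy 1.17.1, matplotlib 3.10.9, pandas 2.3.3 and numpy 2.4.6 in Python 3.11.15.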

Additional observations from a re-analysis of the deposited data

Results flagged for a closer look

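BGN was past 1.5-fold in opposite directions in the study's pairs, with a log2 ratio of 0.91 in A375R against A375P and of -0.72 in A375+VEM against A375+DMSO. With 1 library per condition, the contrast of these pairs was not tested. A375P was the library with the least BGN and A375+DMSO the library with the most, while A375R and A375+VEM lay between them. A375R was at 0.880 of A375+VEM (95% counting interval 0.797 to 0.971), in a pair with a median log2 ratio of -0.10 over all genes.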

How the results depend on the processing

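The log2 ratio of BGN in A375+VEM turned from -0.72 to 1.09 with A375P as the control in place of A375+DMSO, the only one of 136 recomputed ratios of single members that was past 1.5-fold and changed sign. BCAN in A375+VEM, at 0.13 and within the threshold, went to -1.01 with that control and to -0.01 with TMM scaling. Of the 136 ratios, 111 stayed within the reported counting interval and 24 moved outside it. Among those 24 were 7 with TMM scaling and 8 with a median ratio of 1. With A375P as the control, 7 members were higher in A375+VEM in place of 3, but the count over all genes rose too. Of all genes compared, 657 of 1782 were higher with that control, beside 473 of 1784 with A375+DMSO. Of 58 recomputed counts of members, 49 stayed within 1.5 times of the reported count. A TPM of at least 5, which drops 2 low members, left 3 higher in A375R against A375P. Without the filter, which admits ASPN, 1 was lower in A375R against A375P and 2 were lower in A375+VEM against A375+DMSO. A pseudocount of 1, like a median ratio of 1, left 1 higher in A375R against A375+DMSO, and a stricter threshold of 2-fold left 0 higher and 0 lower there and 0 lower in A375+VEM against A375+DMSO. With a pseudocount of 1 in place of 0.1 the log2 ratio of ACAN in A375R against A375P was 1.52 in place of 2.71. Scaling all genes to a median ratio of 1 lowered log2 ratios by 0.11 in A375+VEM against A375+DMSO, and TMM scaling lowered them there by 0.15. No paired analysis was possible because each condition has 1 library, and no library could be left out. Depth limits ASPN and BVES-AS1 most.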
